A study of Mus musculus with 10 samples.

Results

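The comparison described here is that of hepatocytes labelled p65 KO with control hepatocytes, which makes up 5 of the 10 libraries of an mRNA sequencing experiment on mouse liver. Its members were taken from the deposited table by their labels, 2 columns named p65 and 3 named Control, and each column is the library of 1 mouse. The other 5 libraries, 2 of Nrf2 KO and 3 of Nrf2:p65 double knockout (DKO) hepatocytes, were kept in the model for its estimate of the spread and served as a second comparison, DKO against Nrf2 KO, in which p65 loss was measured in mice that share no library with the first.

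All mice were adult males, and the 8 to 9 weeks listed for them were read as their age at injection. The study's methods give an older age for mice 12 days after knockout induction. All were injected with AAV8Cre, an adeno-associated virus that delivers Cre recombinase to the liver. It expresses Cre from the promoter of the thyroxine-binding globulin gene, which is active in hepatocytes. The control mice were wild-type C57BL/6J animals, so they received the virus but had no floxed allele to delete, whereas the p65 KO mice were p65 flox/flox animals of the same background. Nrf2 KO mice were Nrf2 flox/flox, and DKO mice carried the floxed alleles of both genes. Livers were perfused with a digestion enzyme 12 days after injection, and hepatocytes were enriched by low speed centrifugation and a Percoll density step before RNA was extracted from the fresh cells. No group had floxed alleles without Cre, and an effect of the floxed line itself cannot be told apart from that of the deletion.

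p65, the product of Rela, is the subunit of NF-κB that carries its main transactivation domain. In resting cells it is held in the cytoplasm by IκB proteins, and signals from TNF, interleukin 1 or bacterial products lead to their degradation, so that p65 enters the nucleus and switches on genes of inflammation, acute-phase secretion and cell survival, along with its own inhibitors. In hepatocytes this pathway is best known for the acute-phase response and for protection from TNF-induced death.

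The 5 libraries held between 33707165 and 42518454 estimated counts. Of the 21939 genes in the table, 13641 reached a sum of 10 counts in the 10 libraries. They entered edgeR's quasi-likelihood test, and a gene was called when its Benjamini-Hochberg adjusted p did not exceed 0.05 and its level changed by 1 or more on the log2 scale. Values are normalized counts per library, in which differences in library size (TMM) are taken out, and fold changes are p65 KO over control unless another comparison is named. Rela itself (chromosome 19 from 5687493 to 5698161, GRCm39) had 1221, 1276 and 1269 normalized counts in the control and 1183 and 1209 in the p65 KO libraries. The total of the gene was thus nearly the same (log2 fold change -0.07, standard error 0.138, adjusted p = 0.765, and 0.11 with scaling to total counts). The table gives 1 total per gene and none for the floxed exons alone, so their loss could not be read from it. Of 208 other genes tested within 5 Mb of Rela, 3 were called, 1 of them higher, where 6.59% of all genes tested were called. The hepatocyte identity of the samples was clear. None of 11 hepatocyte marker genes was called (1 was called lower without p65 KO replicate 2), and albumin alone had 2851490.0, 2472210.0 and 3719560.0 normalized counts in control and 3119370.0 and 2824010.0 in p65 KO libraries.

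Against control, 899 genes were called in p65 KO (6.59% of the genes tested), of which 689 were higher (5.05%) and 210 lower (1.54%). The 2 sets differed in level. The 689 upregulated genes were mostly of low abundance, with a median of 18.8 normalized counts in control and 97.5 in p65 KO and a median log2 fold change of 2.45, and 348 of them reached a mean of 50 normalized counts. The 210 downregulated genes were mostly abundant, with medians of 774 and 242 normalized counts and a median log2 fold change of -1.45, and 200 of them reached that mean. All but 1 of the 899 called genes had libraries that did not overlap between the genotypes, against 50% of all genes tested. The calls were made from the same libraries, so this describes the called genes and adds no support to them. An unadjusted p under 0.05 was reached by 4313 genes (31.6%). Without p65 KO replicate 1, which leaves a single p65 KO library, 191 genes were higher and 139 lower, and without control replicate 1 there were 344 and 152. Among the genes called higher, 16 had 0 counts in all control libraries, so that no fold change is given for them, and 41 had between 1 and 3 counts over the 3 control libraries.

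In the second comparison, DKO against Nrf2 KO, 59 genes were called (0.433%), 40 of them higher (0.293%) and 19 lower (0.139%). Of the 689 genes called higher in p65 KO, 619 (89.8%) had a positive log2 fold change there, whereas 51.0% of all genes did, and 16 were called higher. Their median log2 fold change was 1.04, against 2.45 in p65 KO. Of the 210 genes called lower, 167 (79.5%) had a negative log2 fold change, with a median of -0.41. In this set 3 genes were called lower and 4 were called higher. Both sets were chosen by their change in p65 KO, which favours larger values there. Their medians in the 2 comparisons are therefore not like for like, and the gap between them was not tested. The difference of the differences was called for 62 genes (0.455%), with 36 positive (0.264%) and 26 negative (0.191%), among them 16 of the 689 and 23 of the 210 genes. The second comparison had 296 calls with DESeq2, 112 without a filter on low counts, 37 with the replicate number as a block and 32 with its 2 genotypes alone, and 21 or 19 without Nrf2 KO replicate 1 or 2. The count for the difference of the differences was 249 with DESeq2, 137 without the filter and 118 with scaling to total counts. With single libraries left out it was 8 without Nrf2 KO replicate 2, 10 and 12 without p65 KO replicates 1 and 2, 19 and 25 without control replicates 1 and 2, 39 without control replicate 3, 41 without Nrf2 KO replicate 1 and 119 without DKO replicate 2.

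**Figure D1:**
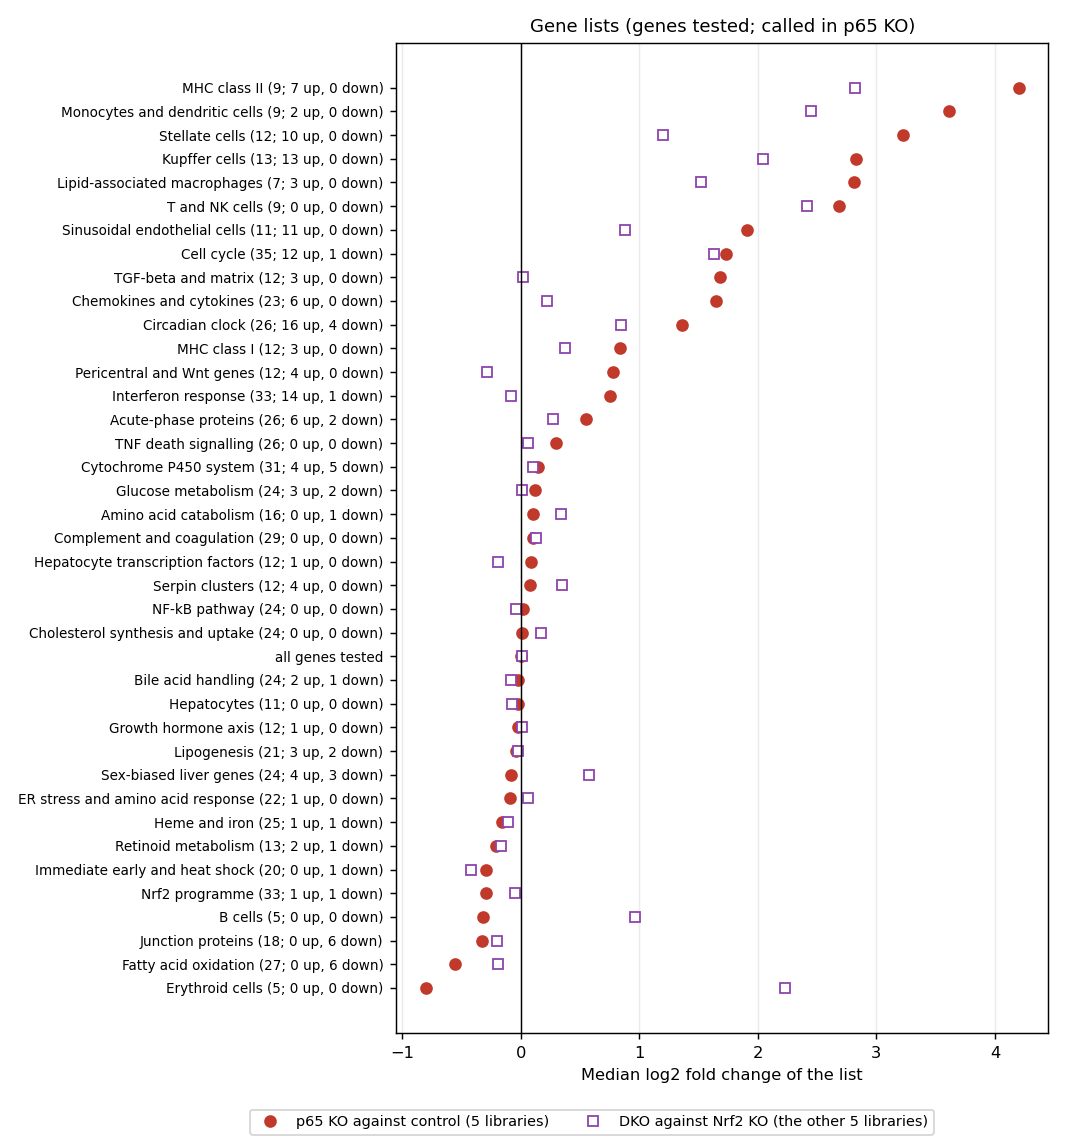
Median log2 fold change of each gene list with 5 or more genes tested (horizontal axis), with filled circles for p65 KO against control and open squares for DKO against Nrf2 KO. Labels give the genes tested and how many were called higher (up) and lower (down) in p65 KO. MHC class II and the markers of stellate and Kupffer cells have among the highest medians, at 4.20, 3.22 and 2.83, and fatty acid oxidation has one of the lowest, at -0.55.

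Counts of called genes in each gene list are to be set beside the shares over all genes tested, 5.05% higher and 1.54% lower. The genes of the NF-κB pathway itself were examined first among the gene lists. None of 24 pathway genes (5 subunits, 10 inhibitors and feedback regulators, 9 kinases and adaptors) was called in either direction, and their median log2 fold change was 0.02, where that of all genes tested was 0.00. The subunit gene Nfkb1, which encodes the p50 precursor, had 714, 679.5 and 687 normalized counts in control and 567 and 523 in p65 KO, where both values were lower without passing the test (log2 fold change -0.35, adjusted p = 0.114). Nfkbia encodes IκBα, the inhibitor that NF-κB induces to end its own activity. It had 890.1, 642 and 1131 normalized counts in control and 1114 and 1052 in p65 KO, so that the genotypes overlapped (log2 fold change 0.29, adjusted p = 0.486). Tnfaip3, which encodes the ubiquitin-editing inhibitor A20, had 30.9, 36.4 and 60.7 against 68.1 and 67.1 normalized counts. Its p65 KO values were the higher ones, and the difference did not pass the test (adjusted p = 0.249).

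To show what was searched for, the promoter windows of 2 classical NF-κB targets are printed, each from 250 bases before to 50 bases after a RefSeq transcription start (GRCm38.p6, read on the strand of the gene). Both strands were searched for the κB letters, GGGA and TTCC with 2 bases of any kind between them. Capitals mark matches, which may overlap. The Nfkbia window is chr12:55492598-55492897 on the minus strand and the Cxcl1 window is chr5:90890995-90891294 on the plus strand.
Nfkbia: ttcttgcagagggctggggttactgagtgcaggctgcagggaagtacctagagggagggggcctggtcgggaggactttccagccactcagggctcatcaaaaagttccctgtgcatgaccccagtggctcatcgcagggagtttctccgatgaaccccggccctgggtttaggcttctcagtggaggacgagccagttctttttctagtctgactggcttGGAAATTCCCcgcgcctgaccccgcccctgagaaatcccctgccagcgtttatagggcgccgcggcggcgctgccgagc
Cxcl1: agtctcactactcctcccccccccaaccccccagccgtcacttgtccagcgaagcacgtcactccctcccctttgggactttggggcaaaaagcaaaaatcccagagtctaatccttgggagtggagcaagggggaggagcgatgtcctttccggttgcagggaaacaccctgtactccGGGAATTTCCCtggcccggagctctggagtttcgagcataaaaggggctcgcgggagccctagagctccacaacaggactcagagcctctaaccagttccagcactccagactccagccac
These letters were present in 1.47% of 32851 windows of all genes and of 13479 windows of genes tested, in 2.93% of 682 windows of genes called higher, and in 1.44% of 209 windows of genes called lower. A match describes the letters only and is not a binding site. Cxcl1, a chemokine that attracts neutrophils, had 280.5, 212 and 237 normalized counts in control and 1265 and 310.0 in p65 KO libraries. It rose (log2 fold change 1.69, standard error 0.445, adjusted p = 0.03), and the increase was mainly in p65 KO replicate 1. Cxcl1 was not called without control replicate 1, 2 or 3 or p65 KO replicate 1, or with the replicate number as a block (adjusted p up to 0.56).

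Genes of TNF death signalling were likewise not called, with 0 of 26 in either direction and a median log2 fold change of 0.30. In this list 2 genes were called higher with DESeq2, and 1 was without control replicate 2 or DKO replicate 1. Cflar, which encodes the caspase-8 inhibitor FLIP, had 3121, 3294 and 3638 normalized counts in control and 4902 and 3550.0 in p65 KO. Sod2, the mitochondrial superoxide dismutase that NF-κB can induce, had 6019.6, 5581 and 5738 and 5446 and 6023. For both genes the genotypes overlapped. Casp8, which encodes the initiator caspase of this pathway, had 1025, 794 and 823 in control against 551 and 839 in p65 KO, also with overlap (adjusted p = 0.231). The death receptor gene Fas had 477, 429.7 and 344 and 268 and 310.0, lower in both p65 KO libraries without passing the test (adjusted p = 0.0746).

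Acute-phase proteins are made by hepatocytes and released into blood during inflammation, and of 26 tested genes 6 rose and 2 fell (median log2 fold change 0.55). Over all genes tested 5.05% rose and 1.54% fell. Saa3, a serum amyloid A gene, fell from 229.7, 92.4 and 124 normalized counts in the control libraries to 19.3 and 18.0 in p65 KO. Both p65 KO values were below all controls, and the gene changed by -2.99 on the log2 scale (adjusted p = 0.00391). In DKO against Nrf2 KO it was called lower as well, with a log2 fold change of -2.51. Lbp, which encodes the lipopolysaccharide-binding protein, was the other gene that fell, from 3522, 2439.7 and 2735 to 1396 and 1199 (log2 fold change -1.16, adjusted p = 0.00663). Lbp was not called in DKO against Nrf2 KO (log2 fold change -0.01, adjusted p = 0.986). Lbp was not called without control replicate 1, or with scaling to total counts (log2 fold change -0.98).

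The related genes Saa1 and Saa2, whose reads can be shared because of their similarity, had higher values in p65 KO without passing the test. Saa2 was called under 6 of 18 alternatives and Saa1 without control replicate 1 (log2 fold change 1.76). Saa1 had 1533, 526 and 686 normalized counts in control and 1620.4 and 2499.9 in p65 KO (log2 fold change 1.17, adjusted p = 0.105). Lcn2 encodes lipocalin 2, which withholds iron from bacteria, and it rose from 47.5, 19.7 and 29.0 to 185 and 222. Both p65 KO values were far above the controls (log2 fold change 2.67, standard error 0.415, adjusted p = 0.00361), and DKO exceeded Nrf2 KO by a log2 fold change of 2.88 (adjusted p = 0.0184). The metallothionein genes Mt1 and Mt2, whose products bind zinc and copper, rose by 2.23 and 3.03 on the log2 scale. Mt2 had 23.2, 40.3 and 106 normalized counts in control and 378 and 555 in p65 KO. Orm2, an orosomucoid gene, rose from 224, 108 and 136 to 547 and 659.7, whereas its abundant neighbour Orm1 had 32124, 21991 and 25539 and 22230.5 and 26978 with overlapping genotypes. Haptoglobin (Hp) overlapped as well, with 105629, 53962 and 60259.7 normalized counts against 68055 and 62733. The hepcidin gene Hamp, which limits iron uptake, had 29819.5, 24305 and 28744 in control and 49896 and 52073 in p65 KO, higher in both without passing the test (adjusted p = 0.111). None of 29 complement and coagulation genes was called, and their median log2 fold change was 0.10. Orm2 was not called without control replicate 2 or 3 or p65 KO replicate 1 or 2 (adjusted p up to 0.081).

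RNA of the non-parenchymal cells of the liver was more abundant in the p65 KO libraries. Kupffer cells are the resident macrophages of the liver, and all 13 of their marker genes tested rose, with a median log2 fold change of 2.83. Across all genes tested 5.05% rose. The sum of these markers was 429.6, 1097 and 850.8 normalized counts in control and 6696 and 4937 in p65 KO. All 11 markers of sinusoidal endothelial cells, which line the liver capillaries, rose as well (median 1.91), with sums of 911, 1713 and 1911 against 6739 and 4911. Stellate cells store vitamin A and can turn into matrix-forming cells, and 10 of their 12 markers rose (median 3.22), with sums of 266.1, 288.1 and 520.2 against 2850 and 2751. The summed hepatocyte markers, at 4010000, 3523000 and 4915000 in control and 4129000 and 3879000 in p65 KO, overlapped. In the second comparison the Kupffer cell sum was 939.2 and 303.9 in Nrf2 KO and 3234, 2324 and 1935 in DKO, a smaller gap in the same direction, and 1 of the 13 markers was called. In these bulk samples more cells of a type and more RNA per cell cannot be told apart. Nor can a change in the liver be told apart from a change in how many such cells remained after hepatocyte enrichment.

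Fewer markers of other cell types were called, and no test was made between the lists. Of the 9 markers of monocytes and dendritic cells tested 2 rose, although all 9 were higher in both p65 KO libraries than in every control library, as 26.2% of all genes tested were. Their median log2 fold change was 3.61, and their sums were 51.9, 80.6 and 56.0 normalized counts in control against 167 and 159 in p65 KO. With Chil3 and Xcr1, at 0 in all control libraries, set to a floor of 3 counts over those libraries, the median was 1.55. Over all settings it ran from 0.71 to 3.89. Of the 7 markers of lipid-associated macrophages 3 rose (median 2.81), and of the 4 neutrophil markers 1 rose (median 2.04). Without control replicate 1 neither the monocyte nor the neutrophil markers held a call. None of the 9 markers of T and NK cells was called, with a median of 2.68 at sums of 15.9 to 37.4 normalized counts in control and 37.6 and 40.6 in p65 KO. With Trbc2 and Nkg7 set to the same floor the median of these markers was 1.8, and over all settings it ran from -0.23 to 3.68. None of the 5 of B cells, 3 of cholangiocytes or 5 of erythroid cells was called either, and 1 B cell marker was called lower with DESeq2, without a filter on low counts and without control replicate 1 or DKO replicate 2. Defining markers of several of these types were nearly absent, since Ms4a1 of B cells, Cd8a of T cells, Ly6g of neutrophils and Krt19 of cholangiocytes were under 10 counts in all libraries together. Without p65 KO replicate 1, 8 Kupffer cell, 2 endothelial and 0 lipid-associated macrophage markers were called, and without control replicate 1, 6 stellate cell markers were.

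**Figure D2:**
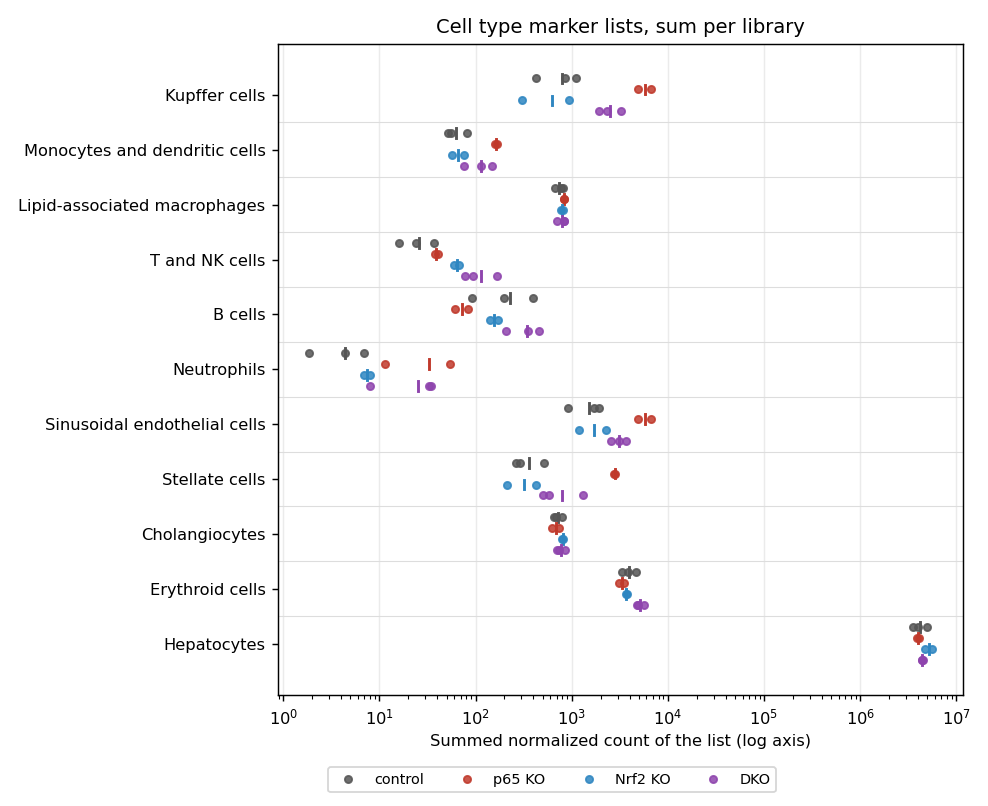
Summed normalized counts of each cell type marker list (horizontal log axis), 1 point per library, with a short vertical bar at the mean of each genotype. The p65 KO points lie to the right of all control points for Kupffer cells (6696 and 4937 against at most 1097), endothelial and stellate cells, and overlap with them for hepatocytes.

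Single markers showed the size of this change. Cd5l, which encodes a scavenger protein secreted by tissue macrophages, rose from 68.5, 163 and 148 normalized counts in control to 1519 and 1033 in p65 KO, where both values were several times those of any control (log2 fold change 3.32, standard error 0.399, adjusted p = 0.00131). DKO exceeded Nrf2 KO in the same gene (2.43, adjusted p = 0.0437). Clec4f, a lectin gene expressed in mouse Kupffer cells, rose from 77.3, 211 and 176 to 1127 and 848. The endothelial gene Dnase1l3, which encodes a secreted nuclease, had 177, 278 and 289.5 normalized counts in control and 1484 and 1012 in p65 KO (log2 fold change 2.33, adjusted p = 0.00198). Dcn, which encodes the matrix proteoglycan decorin of stellate cells and fibroblasts, had 50.8, 46.2 and 107 and 808 and 890.3 (log2 fold change 3.63, adjusted p = 0.00142). Col1a1, the gene for a chain of type I collagen, had 0 counts in all 3 control libraries and 43.7 and 33.1 normalized counts in p65 KO. Against a floor of 3 counts over the control libraries it was at least 38.1-fold higher. In 12 genes of TGF-β signalling and matrix turnover, which these cells also express, 3 rose (1 without p65 KO replicate 1), namely Timp3 (log2 fold change 2.79), Tgfb1 (1.81) and Tgfbr3 (1.55). The call was lost for Clec4f without p65 KO replicate 1 (adjusted p = 0.0624), Tgfb1 without control replicate 1 or p65 KO replicate 1 (adjusted p up to 0.145) and Tgfbr3 without p65 KO replicate 1 (adjusted p = 0.0687).

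MHC class II genes, which antigen-presenting cells use to show peptides to CD4+ T cells, had the highest median of the lists plotted. Of 9 tested genes 7 rose, and the median log2 fold change was 4.20. Ciita, the transactivator that switches the class II genes on, had at most 2.80 normalized counts in a control library and 49.8 and 31.2 in p65 KO (log2 fold change 4.81, standard error 0.809, adjusted p = 0.00502). Cd74, the invariant chain that occupies the peptide groove, rose from 55.2, 112 and 111 to 2146 and 1603 (log2 fold change 4.33, adjusted p = 0.000527). Neither gene had overlapping genotypes. In DKO against Nrf2 KO, Cd74 had 113 and 82.4 normalized counts in Nrf2 KO and 944, 811 and 409.6 in DKO, and it was called higher (log2 fold change 2.89, adjusted p = 0.0102). The Kupffer cell marker sum moved in the same libraries, and its part in the class II result was not tested.

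MHC class I genes are expressed by nearly all cells. All 12 of them had higher values in both p65 KO libraries than in every control library, which held for 26.2% of all genes tested, and 3 passed the test (median log2 fold change 0.84), or 7 with scaling to total counts. Tap1, a subunit of the peptide transporter, rose from 540.0, 476 and 501 normalized counts to 1275 and 1465 (log2 fold change 1.44, standard error 0.220, adjusted p = 0.00336), and the immunoproteasome genes Psmb9 and Psmb10 rose by 1.23 and 1.04 on the log2 scale. H2-K1, a classical class I heavy chain gene, had 39403, 27592 and 33699 normalized counts in control and 53721 and 59026 in p65 KO. It passed the adjusted p (0.0143) but not the fold change (log2 fold change 0.75). Calls were lost for Psmb9 without p65 KO replicate 2 (adjusted p = 0.0685) and Psmb10 without control replicate 2, or with the replicate number as a block (log2 fold change 0.97).

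Genes of the interferon response separated by their role. Of 16 GTPases, a family induced mainly by interferon γ that attacks the vacuoles of intracellular microbes, 11 rose and 0 fell (median log2 fold change 1.92). Igtp, an immunity-related GTPase gene, rose from 1206, 861 and 999 normalized counts in control to 4547 and 5581 in p65 KO (log2 fold change 2.31, standard error 0.255, adjusted p = 0.000789). Gbp2, a guanylate-binding protein gene, rose from 47.5, 36.4 and 46.7 to 169.7 and 181 (log2 fold change 2.01, adjusted p = 0.00416). For Tgtp1, a GTPase gene whose reads may be shared with its close copy Tgtp2, values were 277, 427 and 196 against 3224 and 3149 (log2 fold change 3.41, adjusted p = 0.0087). The genotypes did not overlap in any of these 3 genes. Among 6 transcription factors of the response 3 rose, among them Irf8 (log2 fold change 2.19) and Irf1 (1.19). Irf1 had 619.5, 628 and 819 normalized counts in control and 1334 and 1809 in p65 KO. Of the 6 factors, 1 was called without p65 KO replicate 2. Kupffer cell markers were higher in the same libraries, and their part in these increases was not tested. Irf1 was not called without p65 KO replicate 2 (log2 fold change 0.95).

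By contrast, the 11 genes induced mainly by type I interferon had a median log2 fold change of 0.08, with 0 called higher and 1 lower. Isg15, a ubiquitin-like modifier gene, had 385, 249 and 251 normalized counts in control and 364 and 259.9 in p65 KO, and Ifit3, an antiviral RNA-response gene, had 319, 372 and 269 and 263 and 299. Both overlapped. In DKO against Nrf2 KO both genes were called lower, with log2 fold changes of -1.30 and -1.96. The interaction was called for Ifit3 (log2 difference -1.77, adjusted p = 0.0221) and for Gbp2 (-2.56, adjusted p = 0.0459). In this fit the measured effect of p65 loss on these genes thus differed between the Nrf2 backgrounds. Whether these 2 calls held under the alternatives was not examined.

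Promoter windows of the GTPases often held the same short sequence. The windows of 2 genes are printed because the genes rose together, again from RefSeq on GRCm38.p6 and read on the strand of the gene. Capitals mark the core of the interferon-stimulated response element on either strand, TTTC and TTTC with 2 bases of any kind between them, and in Gbp2 also the κB letters given above. The Igtp window is chr11:58199306-58199605 and the Gbp2 window is chr3:142620413-142620712, both on the plus strand.
Igtp: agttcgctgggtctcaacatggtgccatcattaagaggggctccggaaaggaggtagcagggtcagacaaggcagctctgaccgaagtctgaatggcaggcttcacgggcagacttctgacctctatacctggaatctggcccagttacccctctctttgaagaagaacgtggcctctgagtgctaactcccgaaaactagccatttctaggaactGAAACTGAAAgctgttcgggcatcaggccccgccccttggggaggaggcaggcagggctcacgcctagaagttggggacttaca
Gbp2: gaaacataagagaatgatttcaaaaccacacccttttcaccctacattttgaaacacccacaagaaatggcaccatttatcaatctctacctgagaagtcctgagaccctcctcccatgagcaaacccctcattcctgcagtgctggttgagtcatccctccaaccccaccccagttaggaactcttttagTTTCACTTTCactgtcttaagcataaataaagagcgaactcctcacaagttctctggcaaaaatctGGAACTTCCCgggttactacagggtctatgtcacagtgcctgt
RefSeq windows were matched for 10 GTPase genes, and 9 of the 10 held the core in at least 1 window. Over all 32851 windows 3.44% held it, over those of genes tested 3.23%, and of the 682 windows of genes called higher 5.57% did. The family is known for its response to interferon, and these matches only describe its promoters.

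**Figure D3:**
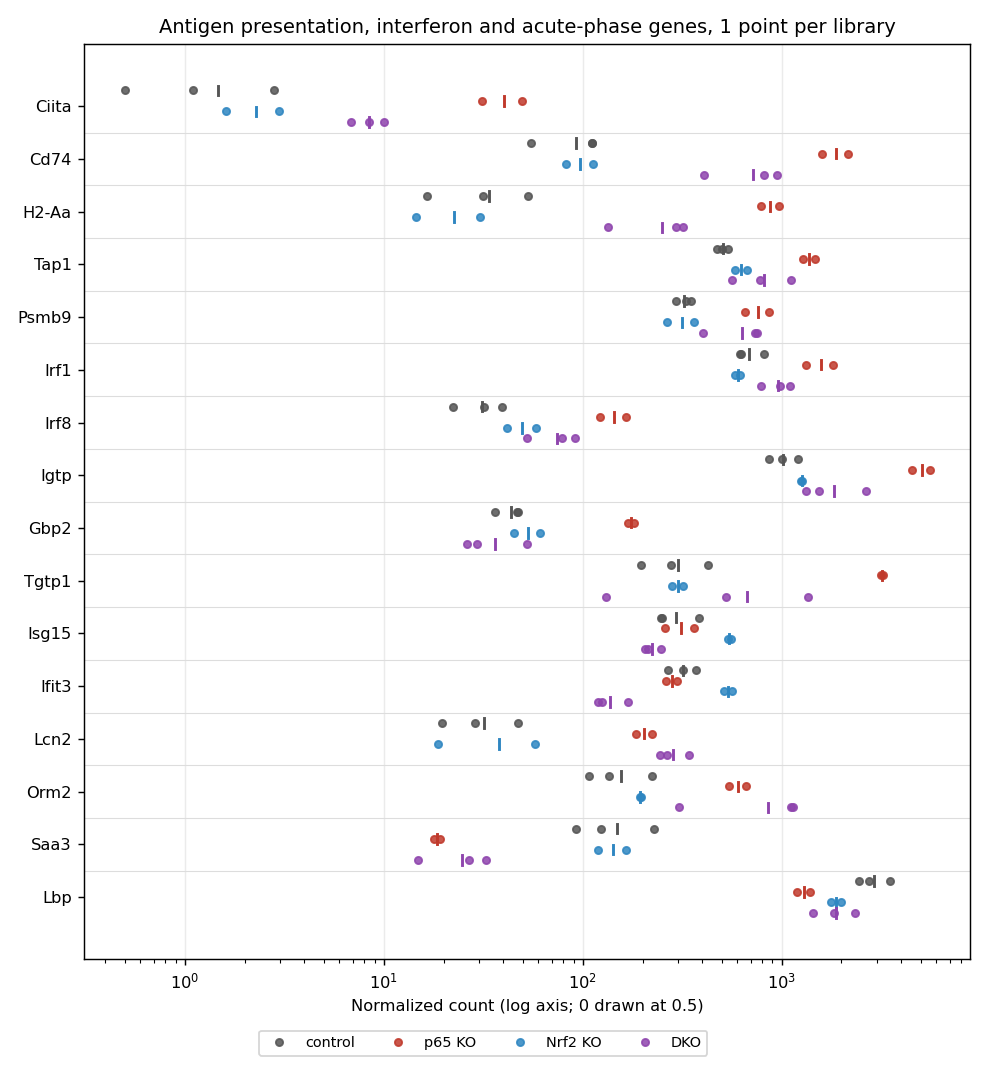
Normalized counts (horizontal log axis) of genes of antigen presentation, the interferon response and the acute phase, 1 point per library and a short vertical bar at the genotype mean, with values of 0 drawn at 0.5. Class II genes such as Cd74 lie far to the right of the control points in both p65 KO libraries, whereas Isg15 and Ifit3 overlap with control and Saa3 and Lbp lie to the left.

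Chemokines and cytokines were mostly at low counts, and 6 of 23 tested genes rose, with a median log2 fold change of 1.65. Cxcl16, a chemokine of macrophages and endothelium, rose from 27.6, 46.2 and 74.7 normalized counts in control to 142 and 176 in p65 KO (log2 fold change 1.67, adjusted p = 0.0141). Csf1, the growth factor of macrophages, rose from 86.1, 110.1 and 57.0 to 214 and 272 (log2 fold change 1.53, adjusted p = 0.0187). Neither gene had overlapping genotypes, and p65 KO replicates 1 and 2 were close to each other. Tnfsf10, which encodes the death ligand TRAIL, rose from 24.3, 48.2 and 59.8 to 139 and 139.9. Tnf had 0 counts in all control libraries and 7.11 and 2.83 normalized counts in p65 KO, and it was not called (adjusted p = 0.0964). Cxcl9 and Cxcl10, which interferon γ induces, were not called, with log2 fold changes of 0.28 and 0.66. The marker sums of Kupffer and endothelial cells were higher in the same libraries, and their part in these increases was not tested. Without p65 KO replicate 1 none of the 23 genes was called, and that library also had 3963 normalized counts of Socs3, a feedback inhibitor of cytokine signalling, against 807 in replicate 2 and 235, 352 and 212 in control (log2 fold change 3.16, adjusted p = 0.0241). The test was not passed by Cxcl16 without p65 KO replicate 1 or 2 (adjusted p up to 0.0687), Csf1 without control replicate 1 or 3 or p65 KO replicate 1 or 2 (adjusted p up to 0.0919) and Tnfsf10 without p65 KO replicate 1 or 2 (adjusted p up to 0.0839). Socs3 was not called without control replicate 1, 2 or 3 or p65 KO replicate 1, or with the replicate number as a block (adjusted p up to 0.304).

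Genes of the circadian clock changed in opposite directions according to their arm of the loop. The clock is a loop in which BMAL1 pairs with CLOCK or NPAS2 and activates genes through E-boxes, and the PER, CRY and REV-ERB proteins that result then repress it, so that the activators and their targets peak at different times of day. Of 26 clock genes 16 rose and 4 fell. In the activating and night-phase arm 4 of 7 genes fell and 0 rose (median log2 fold change -1.48). In the repressing and day-phase arm 11 of 12 rose and 0 fell (median 2.43), and of 7 output genes 5 rose (median 1.59). When p65 KO replicate 1 was left out, 2 of the 26 genes were called lower and 11 higher, and without control replicate 1, 7 of the repressing arm were called higher.

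Among the activators, Npas2 had 117, 410.1 and 44.8 normalized counts in control and 9.14 and 0.945 in p65 KO (log2 fold change -5.24, standard error 1.31, adjusted p = 0.0249). Clock fell from 1691, 2164 and 1626 to 748 and 559.5, with both p65 KO values below all controls (log2 fold change -1.48, standard error 0.182, adjusted p = 0.00144). Bmal1 fell further still, with 758, 1129.9 and 498 normalized counts in control and 30.5 and 21.7 in p65 KO. Nfil3, a repressor that competes with the D-box activators, fell from 1894, 1041 and 1306 to 387 and 378 (log2 fold change -1.88, adjusted p = 0.0169). Cry1 was lower in both p65 KO libraries without passing the test, with 399.8, 552 and 314 against 200.1 and 304 normalized counts (adjusted p = 0.0983). The call was lost for Npas2 without control replicate 2 or p65 KO replicate 1 or 2 (adjusted p up to 0.127) and Nfil3 without control replicate 1 or p65 KO replicate 1 or 2 (adjusted p up to 0.115).

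In the opposite arm, Per3 rose from 67.4, 63.9 and 94.3 normalized counts in control to 1384 and 1379.9 in p65 KO, values that were almost equal in the 2 p65 KO mice (log2 fold change 4.19, standard error 0.558, adjusted p = 0.00198). Per1 rose from 169, 112 and 451 to 1394 and 1115 (log2 fold change 2.36, adjusted p = 0.0124). Dbp and Tef, which encode activators of D-box genes, rose by 4.35 and 2.50 on the log2 scale. Dbp varied widely among the control mice, with 45.3, 54.1 and 426 normalized counts, and stood at 3627 and 3589 in p65 KO. The one gene of this arm that was not called was Nr1d1, the gene for REV-ERBα, with 2448, 1326 and 4919 in control and 5123 and 2199 in p65 KO, where the p65 KO mice spanned most of the control range (adjusted p = 0.647). Its relative Nr1d2 rose from 1682, 1451 and 2233 to 3559 and 3791 (log2 fold change 1.04, adjusted p = 0.014). Among the outputs, Wee1, which encodes a kinase that delays mitosis, rose from 115, 73.8 and 150.4 to 616 and 1192 (log2 fold change 3.00, adjusted p = 0.00378), and Por, the electron donor of all microsomal P450 enzymes, rose by 1.48. Calls were lost for Per1 without control replicate 1 or p65 KO replicate 1 (adjusted p up to 0.082), Dbp without control replicate 1 or 2 or p65 KO replicate 1 or 2 (adjusted p up to 0.0868) and Nr1d2 without control replicate 1 or 2 or p65 KO replicate 1 or 2 (adjusted p up to 0.07).

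**Figure D4:**
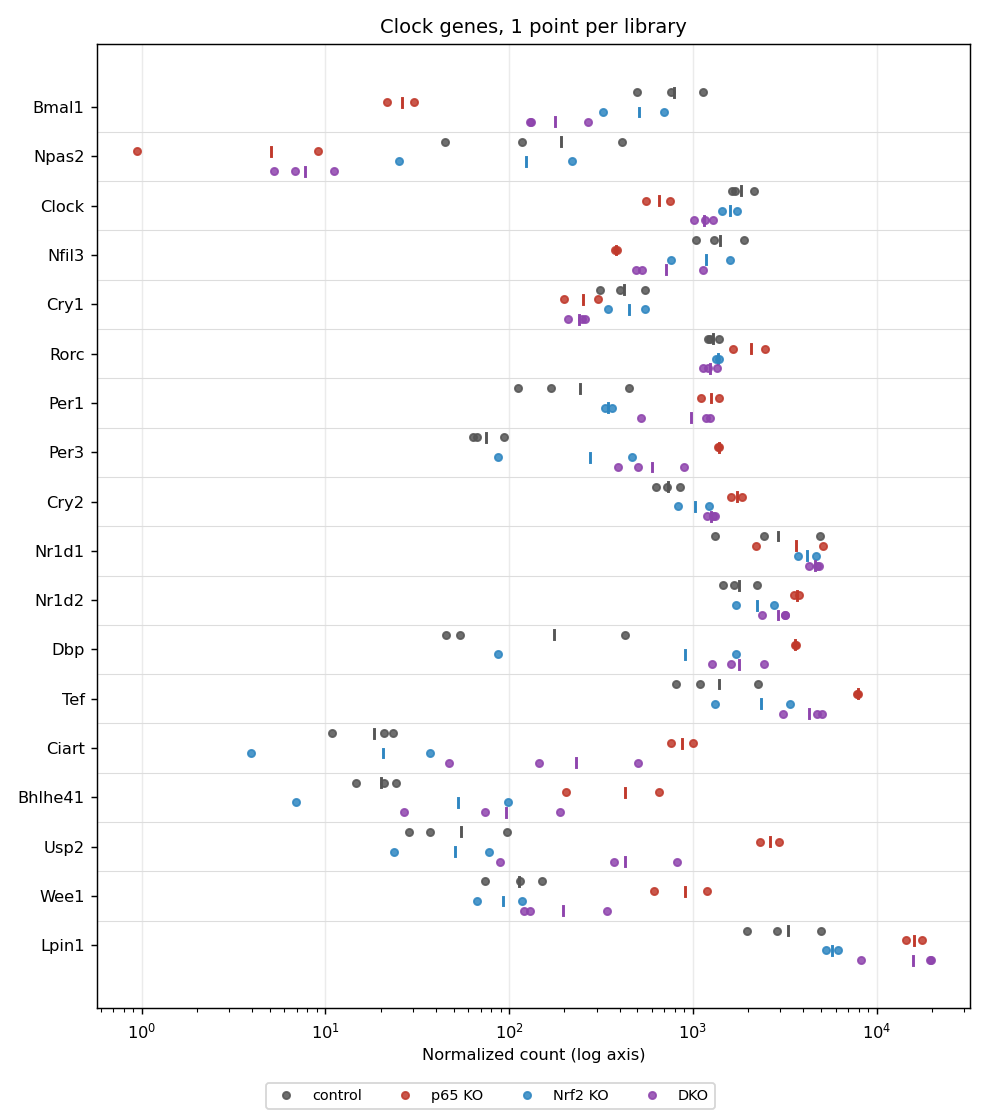
Normalized counts of clock genes (horizontal log axis), 1 point per library, with a short vertical bar at the mean of each genotype. Genes of the activating arm such as Bmal1 and Clock lie to the left of control in both p65 KO libraries, and genes of the opposite arm such as Per3, Dbp and Ciart lie to the right, with the DKO means between those of control and p65 KO for these 5 genes.

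The same genes varied among the other mice. In the Nrf2 KO libraries Dbp had 87.0 and 1719 normalized counts and Per3 had 87.0 and 467, in both genes a wider gap than between the p65 KO libraries. In DKO, Dbp had 1271, 1621 and 2437 and Per3 had 393, 504 and 893. No gene of the activating or repressing arm was called in DKO against Nrf2 KO, with log2 fold changes of -1.52 for Bmal1 and 1.09 for Per3. Mice were killed in the morning, per the study's methods, and the hour for each mouse is not given in the sources used here, so that time of day and genotype cannot be told apart.

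Promoter windows of 3 genes of the repressing arm are shown, from RefSeq on GRCm38.p6 and read on the strand of the gene. In Ciart, a repressor of the BMAL1 complex, and in Bhlhe41, which competes for E-boxes, capitals mark the E-box CACGTG, and in Per3 they mark the D-box TTATGTAA or its reverse complement. The windows lie on the minus strand, at chr3:95882179-95882478 for Ciart, chr6:145865371-145865670 for Bhlhe41 and chr4:151044616-151044915 for Per3.
Ciart: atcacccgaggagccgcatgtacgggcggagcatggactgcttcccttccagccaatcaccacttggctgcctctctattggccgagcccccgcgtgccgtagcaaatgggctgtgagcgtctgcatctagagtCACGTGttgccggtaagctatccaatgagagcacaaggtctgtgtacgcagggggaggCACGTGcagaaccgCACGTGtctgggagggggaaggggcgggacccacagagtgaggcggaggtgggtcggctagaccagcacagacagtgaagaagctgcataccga
Bhlhe41: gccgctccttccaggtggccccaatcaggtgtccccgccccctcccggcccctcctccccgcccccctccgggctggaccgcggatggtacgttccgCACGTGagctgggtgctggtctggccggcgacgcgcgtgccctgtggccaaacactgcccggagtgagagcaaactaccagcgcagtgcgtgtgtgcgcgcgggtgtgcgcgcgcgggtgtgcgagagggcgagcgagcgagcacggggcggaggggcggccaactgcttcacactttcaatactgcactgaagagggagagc
Per3: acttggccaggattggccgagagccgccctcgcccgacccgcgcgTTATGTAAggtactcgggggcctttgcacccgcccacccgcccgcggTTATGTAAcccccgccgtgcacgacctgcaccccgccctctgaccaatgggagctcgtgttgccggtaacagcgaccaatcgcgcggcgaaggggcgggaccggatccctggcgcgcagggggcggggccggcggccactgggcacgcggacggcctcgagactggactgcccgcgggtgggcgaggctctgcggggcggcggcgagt
Windows were found for 10 genes of this arm, and 4 of them held an E-box, in 5 of 12 windows (41.7%), where 7.15% of all windows and 9.42% of those of genes tested did. Over the windows of all genes called higher the share was 8.65%, and over those of genes called lower it was 10%. The D-box was found in 1 of the 12 windows of this arm, that of Per3, and in 0.938% of all windows and 0.623% of those of genes tested. Ciart had 21.0, 10.8 and 23.3 normalized counts in control against 997 and 759 in p65 KO, and Bhlhe41 had 21.0, 14.8 and 24.3 against 654 and 204. Bhlhe41 was not called without control replicate 1 or p65 KO replicate 1 (adjusted p up to 0.115).

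Fatty acid oxidation was the metabolic group with the most genes that fell. PPARα is the nuclear receptor that turns on the breakdown of fatty acids in fasting, and of 27 genes of this pathway 6 fell and 0 rose (median log2 fold change -0.55). At an adjusted p of 0.05 without the fold change, 17 were lower and 1 higher, where over all genes 6.77% were lower and 8.13% higher. Pdk4, a kinase that shuts off the use of glucose carbon, fell from 665, 494 and 383 normalized counts in control to 21.3 and 35.0 in p65 KO (log2 fold change -4.18, standard error 0.588, adjusted p = 0.00232). Ehhadh, the bifunctional enzyme of peroxisomal oxidation, fell from 31245, 28939 and 32643 to 7621 and 9203 (log2 fold change -1.88, adjusted p = 0.00268). Vnn1, a pantetheinase induced by PPARα, fell from 1547, 1466 and 1650.2 to 327 and 395 (log2 fold change -2.11, adjusted p = 0.000636). In these 3 genes both p65 KO mice lay well below every control mouse.

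The receptor gene Ppara was not among them. It had 1822, 2271 and 3110.0 normalized counts in control and 5161 and 3709 in p65 KO, where the values were the higher ones (log2 fold change 0.88, adjusted p = 0.0393, below the fold change for a call). Ppara was called with scaling to total counts (1.06), with the replicate number as a block (1.07) and without p65 KO replicate 2 or control replicate 3 (up to 1.11). Cpt1a, which admits fatty acids to mitochondria, had 9772, 9279 and 14303 and 15654 and 15745 and was not called. Without control replicate 1, 4 genes of the list were called lower.

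The Cyp4a enzymes, which hydroxylate the end of fatty acid chains and are classical PPARα targets, fell steeply. Cyp4a14 had 11401, 14078 and 29874 normalized counts in control and 729 and 729 in p65 KO (log2 fold change -4.66, standard error 1.04, adjusted p = 0.0166). Cyp4a10 had 26673, 23698 and 41453 against 1852 and 1967 (log2 fold change -4.00, adjusted p = 0.0155). The genotypes were separated by a wide gap, and reads may be shared among these similar genes. In the other libraries the level was already low in Nrf2 KO, at 2992 and 1094 normalized counts of Cyp4a14, and DKO ranged over 108, 678 and 2189. DKO against Nrf2 KO was not called for Cyp4a14 (adjusted p = 0.598), and for Cyp4a31 the interaction was called (log2 difference 3.94, adjusted p = 0.0221). The test was not passed by Cyp4a14 without p65 KO replicate 1 or 2 (adjusted p up to 0.128) and Cyp4a10 without p65 KO replicate 1 or 2 (adjusted p up to 0.122).

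Of the 25 P450 enzymes as a whole, 2 rose and 5 fell, against 5.05% and 1.54% of all genes tested. Cyp3a11, a main drug-metabolizing enzyme, fell from 212175, 176039 and 140363 normalized counts to 74923 and 94913 (log2 fold change -1.05, adjusted p = 0.0242). Cyp2a5, which hydroxylates coumarin, rose from 10066, 4659 and 5153 to 28927 and 36009 (log2 fold change 2.29, adjusted p = 0.0244). Its close copy Cyp2a4, a female-biased gene with which it can share reads, had 8.83, 4.92 and 47.6 normalized counts in control and 18096 and 17985 in p65 KO. In DKO, Cyp2a4 had 1648, 5039 and 11.4 and in Nrf2 KO 2.97 and 0.808, so that 1 of the 3 DKO mice was at the level of control. Without control replicate 2 neither rise among the 25 enzymes was called, and without p65 KO replicate 1, 2 of the 5 enzymes that fell were. Cyp2e1 and Cyp1a2, the abundant enzymes of the pericentral zone, were not called, although Cyp1a2 was with scaling to total counts (log2 fold change 1.13). The call was lost for Cyp3a11 without control replicate 1 or 2 or p65 KO replicate 1 or 2, or with scaling to total counts or with the replicate number as a block (adjusted p up to 0.186) and Cyp2a5 without control replicate 2 or 3 or p65 KO replicate 1 or 2 (adjusted p up to 0.0906).

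Sex-biased liver genes follow the pulses of growth hormone, and in these male mice 3 of 11 male-biased genes fell and 4 of 13 female-biased genes rose. Of all genes tested 1.54% fell and 5.05% rose. Elovl3, a fatty acid elongase gene that is both male-biased and rhythmic, fell from 21276, 18600.2 and 11076 normalized counts to 1424 and 1612 (log2 fold change -3.48, adjusted p = 0.00293). Mup20, a major urinary protein gene with near-identical relatives, fell from 483369, 277793 and 346555 to 95451 and 131884 (log2 fold change -1.70, adjusted p = 0.0096). Cux2, a female-biased repressor, had 3.31, 0 and 1.87 in control and 32.5 and 15.1 in p65 KO (adjusted p = 0.0421). Other genes used to tell the sexes apart did not follow. Slco1a1, a male-biased transporter, had 18105, 20064 and 20760.2 against 22591 and 22102, and female-biased Cyp2b9 stayed at or under 8.40 normalized counts in the 5 libraries. The growth hormone receptor gene Ghr (log2 fold change -0.06) and Igf1 (0.04) were not called. Only 1 male-biased gene was called without p65 KO replicate 1, and without control replicate 1, 1 female-biased gene was. Calls were lost for Mup20 without p65 KO replicate 1 (adjusted p = 0.0998) and Cux2 without control replicate 1, 2 or 3 or Nrf2 KO replicate 1 or 2 or p65 KO replicate 1 or 2 (adjusted p up to 0.228).

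Lipid synthesis moved in both directions. Of 21 lipogenic genes 3 rose and 2 fell (median log2 fold change -0.04), and 6 were called higher with scaling to total counts and 5 without control replicate 2. Among all genes tested 5.05% rose and 1.54% fell. Srebf1, the main activator of fatty acid synthesis, rose from 4195, 5902 and 4239 normalized counts to 9022 and 11185 (log2 fold change 1.08, adjusted p = 0.021). Thrsp, a regulator of the same pathway, rose by 1.89, and Lpin1, a phosphatidate phosphatase and clock output, rose from 1982, 2879 and 5009.6 to 14503 and 17625 (log2 fold change 2.29, adjusted p = 0.00558). Elovl5, which elongates polyunsaturated fatty acids, fell from 15206, 27180.1 and 27471 to 9526 and 9265 (log2 fold change -1.31, adjusted p = 0.0244). The synthase Fasn had 12816, 23605 and 13869 and 27195 and 23670.4 and was not called. None of 24 genes of cholesterol synthesis and uptake was called, with a median of 0.01. Of the 3 lipogenic rises, 1 was called without control replicate 1. No call was made for Srebf1 without control replicate 1 or 3 or p65 KO replicate 1 or 2 (adjusted p up to 0.106), Thrsp without control replicate 1 or 3 or p65 KO replicate 2 (adjusted p up to 0.117) and Elovl5 without control replicate 2 or 3 or p65 KO replicate 1 or 2 (adjusted p up to 0.142).

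In bile acid handling 2 of 24 genes rose and 1 fell, where 5.05% of all genes tested rose and 1.54% fell. Cyp7a1, the rate-limiting enzyme of bile acid synthesis, rose from 539, 1236 and 704 normalized counts in control to 3882 and 10954 in p65 KO (log2 fold change 3.17, standard error 0.640, adjusted p = 0.011). The p65 KO mice were far apart but both exceeded all controls. Nr0b2, the gene for SHP, which represses Cyp7a1, fell from 2205, 1352 and 1805 to 905 and 693 (log2 fold change -1.16, adjusted p = 0.0266). The bile acid receptor gene Nr1h4 had 3701, 3067 and 3949.6 and 3589 and 4834, with overlap. Without p65 KO replicate 2 neither rise was called, and without control replicate 1 the fall was not. The test was not passed by Cyp7a1 without p65 KO replicate 2 (adjusted p = 0.0712) and Nr0b2 without control replicate 1 or 3 or p65 KO replicate 1 or 2, or with scaling to total counts or with the replicate number as a block (adjusted p up to 0.141).

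Genes of glucose metabolism also divided, with 3 of 24 higher and 2 lower, against 5.05% and 1.54% of all genes tested. Igfbp1, an insulin-repressed binding protein of insulin-like growth factors, fell from 17755, 10527 and 5208 normalized counts to 3414 and 1044 (log2 fold change -2.32, adjusted p = 0.03). G6pc1, the phosphatase that releases glucose, fell from 38693, 19935 and 11361 to 7968 and 7281 (log2 fold change -1.61, adjusted p = 0.0316). The controls themselves were far apart in both genes. Gys2, the liver glycogen synthase, rose from 4690.0, 4290.4 and 5923 to 9737 and 12972 (log2 fold change 1.19, adjusted p = 0.0113), and Pfkfb3, which speeds up glycolysis, rose from 170.1, 227 and 168 to 615 and 974 (log2 fold change 2.07, adjusted p = 0.00854). Pck1, which encodes the gatekeeping enzyme of gluconeogenesis, overlapped, with 101662, 39929 and 115537 and 80349.5 and 53021. Among 16 genes of amino acid catabolism only Gldc, a subunit of the glycine cleavage system, was called, with a log2 fold change of -1.33. Of the 3 rises in the glucose list, 1 was called without p65 KO replicate 2. The call was lost for Igfbp1 without control replicate 1 or 2 or p65 KO replicate 2 (adjusted p up to 0.141), G6pc1 without control replicate 1 or 2 or p65 KO replicate 1 or 2, or with scaling to total counts (adjusted p up to 0.161) and Gys2 without p65 KO replicate 2 (adjusted p = 0.068). Pfkfb3 was not called without p65 KO replicate 2 (adjusted p = 0.0508).

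**Figure D5:**
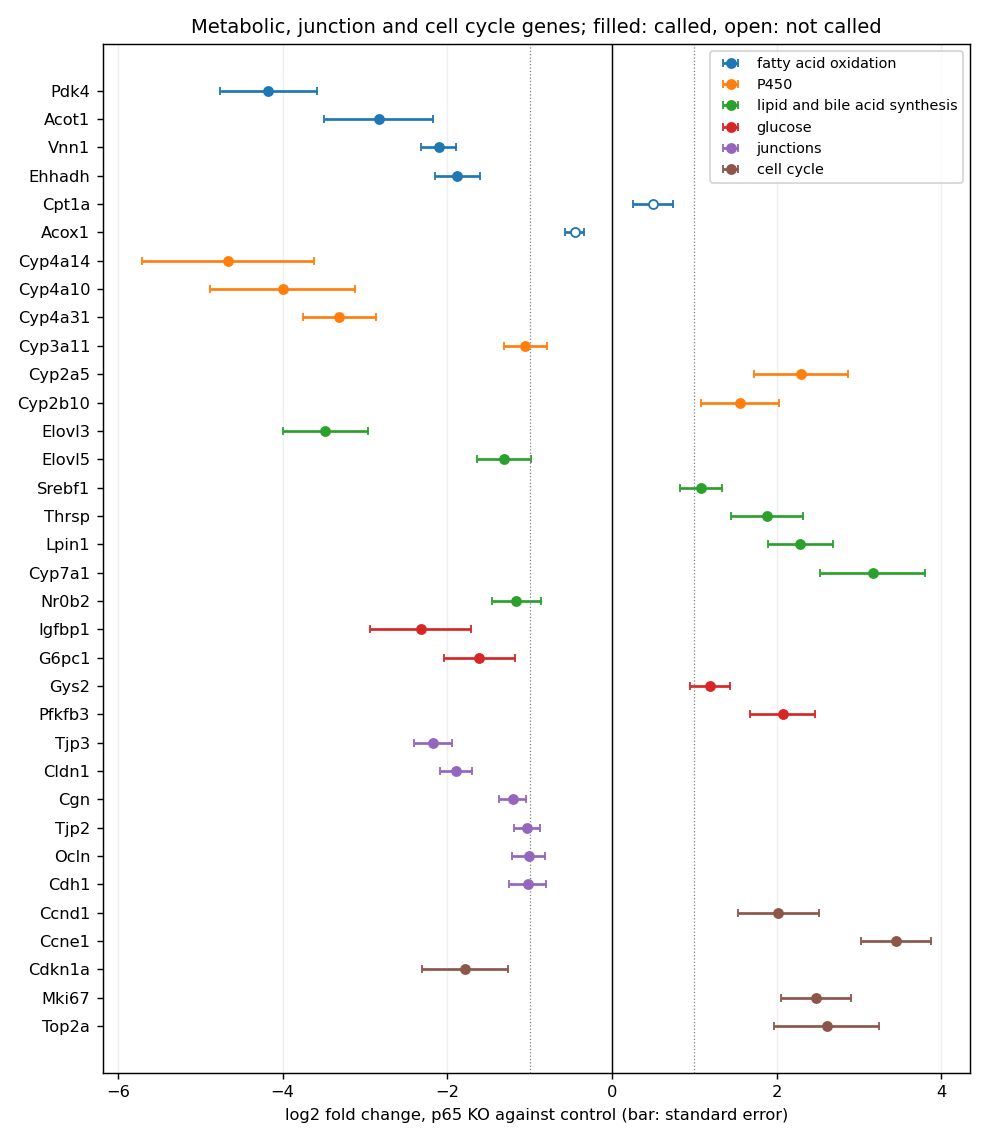
log2 fold change of p65 KO against control (horizontal axis) with its standard error as a bar, for genes of fatty acid oxidation, P450 enzymes, lipid and bile acid synthesis, glucose metabolism, junctions and the cell cycle. Filled points were called and open points were not, and dotted lines mark the fold change needed for a call, 1 on the log2 scale. The Cyp4a genes and Pdk4 lie far to the left, with Cyp4a14 at -4.66, and Ccne1 and Cyp7a1 far to the right, at 3.44 and 3.17.

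The Nrf2 programme holds the antioxidant genes controlled by the second factor of the study. Of 33 genes 1 rose and 1 fell, near the 6.59% of all genes called in either direction, and the median log2 fold change was -0.29. By adjusted p alone 5 of the 33 were lower, against 6.77% of all genes, and 17 had both p65 KO libraries below every control library, against 23.8%. Without control replicate 2 or 3, 2 were called lower. Gclc, which encodes the catalytic part of glutamate-cysteine ligase in glutathione synthesis, fell from 27771, 22722 and 18703 normalized counts in control to 10823 and 7563 in p65 KO (log2 fold change -1.33, standard error 0.195, adjusted p = 0.00281). Hmox1, the heme oxygenase gene that macrophages also express, rose from 216, 181 and 219 to 679.7 and 438 (log2 fold change 1.44, adjusted p = 0.00198). Both were separated between the genotypes. Nqo1, a standard Nrf2 target, had 218, 181 and 182 and 199 and 207, with overlap, and Nfe2l2, the gene for Nrf2, had 2318, 1991 and 1990.2 and 1993 and 1997. Gstm1, a glutathione S-transferase gene, had 110478, 116086 and 95274 and 68984 and 62012 and passed the adjusted p (0.0379) without the fold change (-0.71). The Kupffer cell markers moved with Hmox1, and their part in its increase was not tested.

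Junction proteins that seal the bile canaliculus and hold hepatocytes together fell in part, with 6 of 18 genes lower and 0 higher. Among all genes tested 1.54% were lower and 5.05% higher. Of these, 5 were among 14 tight junction genes, whose median log2 fold change was -0.46. Tjp3, which encodes the scaffold protein ZO-3, fell from 841, 1017 and 823 normalized counts in control to 242 and 154 in p65 KO (log2 fold change -2.18, standard error 0.232, adjusted p = 0.000763). Cldn1, the gene for the sealing protein claudin 1, fell from 4331, 4820.4 and 3730.1 to 1385 and 924 (log2 fold change -1.90, adjusted p = 0.000722). Cgn, which encodes cingulin, fell by 1.21 on the log2 scale. Occludin (Ocln), with 1024, 885 and 1347 against 604 and 471, fell by 1.01, close to the fold change for a call, as did Cdh1, the gene for E-cadherin, with 2624, 2838 and 2541 against 1459 and 1163. Tjp1, the gene for ZO-1, had 909.9, 1322 and 1261 and 1368 and 1163 and overlapped, and Cldn2, which forms cation pores, overlapped too, with 3133, 3308 and 2028 and 1891 and 2187. In DKO against Nrf2 KO none of the 18 genes was called, and the log2 fold changes of Tjp3 and Cldn1 were -0.80 and -0.83. With scaling to total counts 3 of the 18 genes were called lower. Calls were lost for Ocln without control replicate 3 or p65 KO replicate 2, or under 6 other alternatives (adjusted p up to 0.07) and Cdh1 without control replicate 2 or p65 KO replicate 1 or 2, or with scaling to total counts (adjusted p up to 0.0888).

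Cell cycle genes, most of them at low counts, were in part higher in p65 KO. Of 35 genes 12 rose and 1 fell, with a median log2 fold change of 1.73. All 16 mitotic genes had both p65 KO libraries above all control libraries, where 26.2% of all genes did, and 8 of them passed the test. Mki67, the marker of cycling cells, averaged 78.8 ± 19.5 (SD, n = 2) normalized counts among p65 KO mice, against 14.1 ± 1.98 (SD, n = 3) among controls (log2 fold change 2.48, standard error 0.427, adjusted p = 0.00561). Top2a, the topoisomerase of dividing cells, had 16.6, 2.95 and 14.9 and 62.0 and 78.4 (log2 fold change 2.61, adjusted p = 0.0228). In DKO against Nrf2 KO the median log2 fold change of the mitotic genes was 3.85, and Mki67 was called there, with 2.97 and 2.42 normalized counts in Nrf2 KO and 44.2, 40.4 and 85.8 in DKO (log2 fold change 4.34, adjusted p = 0.00835). Top2a was not called without p65 KO replicate 1 or 2 (adjusted p up to 0.0906).

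Genes of the G1 phase changed at higher counts. Ccnd1, the cyclin that carries growth signals into the cycle, rose from 1213, 759 and 633 normalized counts in control to 3639 and 3390.3 in p65 KO (log2 fold change 2.02, standard error 0.492, adjusted p = 0.0224). Ccne1, the cyclin of entry into S phase, rose from 29.8, 19.7 and 19.6 to 197 and 304 (log2 fold change 3.44, adjusted p = 0.00157). The inhibitor gene Cdkn1a, which encodes p21, fell from 297, 447 and 263 to 119.9 and 75.6 (log2 fold change -1.78, adjusted p = 0.0435). The genotypes did not overlap in these 3 genes. None of 9 replication genes was called, with a median of 0.59, whereas 3 were called higher with the 2 genotypes alone or without DKO replicate 3, and 1 was under several other settings. Of the 4 G1 genes that rose, 1 was called without control replicate 2. Of the whole list 3 genes, 2 of them mitotic, were called without p65 KO replicate 1. The marker sums of Kupffer, endothelial and stellate cells were higher in the same libraries, and which cells the mitotic RNA came from was not tested. The test was not passed by Ccnd1 without control replicate 2 or 3 or p65 KO replicate 1 or 2 (adjusted p up to 0.112) and Cdkn1a without control replicate 1, 2 or 3 or p65 KO replicate 1 or 2 or DKO replicate 1, or with scaling to total counts or with the replicate number as a block (adjusted p up to 0.201).

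Pericentral genes, which Wnt signals maintain around the central vein, rose in 4 of 12 cases (median log2 fold change 0.78). The share that rose over all genes tested was 5.05%. Glul, the glutamine synthetase of the innermost hepatocytes, rose from 6371, 5258 and 4719 normalized counts to 12849 and 14801 (log2 fold change 1.34, standard error 0.172, adjusted p = 0.00174), and Slc1a2, a glutamate transporter of the same cells, rose from 615, 324 and 431 to 2132 and 2174. The Wnt targets Axin2 and Lgr5 were not called, with 112, 212 and 128 against 201 and 198 and 57.4, 78.7 and 59.8 against 82.3 and 59.5 normalized counts. For Glul the interaction was called, with DKO not called against Nrf2 KO (log2 fold change -0.20, adjusted p = 0.633). Immediate early genes, which respond within minutes to handling of the tissue, had a median log2 fold change of -0.49. Fos had 6448, 2350.2 and 1504 normalized counts in control and 1469 and 221 in p65 KO, lower in both without passing the test (adjusted p = 0.0914), and of 16 such genes only Fosb fell (log2 fold change -3.85, adjusted p = 0.0237). Without p65 KO replicate 1, 4 of the 16 were called lower, Fos among them (log2 fold change -3.95). Of 22 genes of the stress response of the endoplasmic reticulum and amino acid supply, Asns, asparagine synthetase, was the one called, with 136, 157 and 54.2 against 383 and 581. Of the 4 pericentral rises, 2 were called without control replicate 3. The call was lost for Fosb without control replicate 1 or p65 KO replicate 2 (adjusted p up to 0.109) and Asns without control replicate 1, 2 or 3 or p65 KO replicate 1 or 2, or with the replicate number as a block (adjusted p up to 0.159).

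Several of the largest changes over all genes had no counterpart in the second comparison. Corin, a gene for a membrane protease that activates natriuretic peptide, had a total of 3 counts in the control libraries and 231 and 168 normalized counts in p65 KO, a ratio of 198 (exact 95% interval from 67.2 to 963, for counting error only). Serpina3c, a protease inhibitor gene with many close copies, had 7.73, 9.83 and 1.87 against 4586 and 5314. Plekhb2, a gene for an endosomal membrane protein, fell from 546, 484 and 611 to 40.6 and 39.7 (log2 fold change -3.76, adjusted p = 0.000722), and Dhrs9, a retinol dehydrogenase gene, fell from 236, 305 and 237 to 19.3 and 6.62 (log2 fold change -4.33, adjusted p = 0.000722). None of these genes was called in DKO against Nrf2 KO. Corin had 1.98 and 3.23 normalized counts in Nrf2 KO and 0, 1.12 and 0 in DKO, Serpina3c had at most 6.31 in any of these 5 libraries, and Plekhb2 had 546 and 597 and 262, 663 and 316. The interaction was called for Corin, Plekhb2 and Dhrs9 and was not called for Serpina3c. It was also called for the GTPase gene Gm4841. That gene had 9.94, 23.6 and 20.5 normalized counts in control, 4480.2 and 5104 in p65 KO and between 17.8 and 38.1 in the other 5 libraries.

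Other genes among the largest changes moved the same way in both comparisons without a call in the second. Rfx4, a transcription factor gene, fell from 180.0, 218 and 144 to 26.4 and 15.1 normalized counts (log2 fold change -3.12, adjusted p = 0.00207), and was lower in DKO than in Nrf2 KO by a log2 fold change of -1.29 (adjusted p = 0.149). Asap2 and Loxl4, which encode a regulator of membrane traffic and a matrix cross-linking enzyme, fell by 3.27 and 2.97 on the log2 scale. Igsf23, an immunoglobulin superfamily gene, rose from 4.42, 4.92 and 6.54 to 169 and 141, and Gvin2, a giant interferon-inducible GTPase gene, rose from 173, 45.2 and 134 to 2409 and 1774. For these 2 genes DKO replicate 3, with 3.43 and 52.6, lay at or below the level of the Nrf2 KO libraries, whereas the other DKO mice were far above it. Calls were lost for Asap2 without p65 KO replicate 1 (adjusted p = 0.0595), Loxl4 without p65 KO replicate 1 or 2 (adjusted p up to 0.097) and Igsf23 without control replicate 1, 2 or 3 or p65 KO replicate 1, or with the replicate number as a block (adjusted p up to 0.0872). Gvin2 was not called without control replicate 1, 2 or 3 or p65 KO replicate 1, or with the replicate number as a block (adjusted p up to 0.108).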

How the data were processed

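The table deposited by the authors holds 1 estimated count per gene and library, rounded to whole numbers. Per the labels and the study's methods they were made with Salmon 1.10.3 on GRCm39 from single-end reads of poly-A selected RNA, and the step from transcripts to genes is not given in the sources used here. The file is named as normalized, but its column totals differ and it was analysed as counts.

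One model of all 4 genotypes was fitted with edgeR 4.0.16 (R 4.3.3, TMM scaling, quasi-likelihood test, two-sided) to genes with at least 10 counts over the 10 libraries. Calls needed an adjusted p no higher than 0.05 and a change of 1 or more on the log2 scale, and standard errors were taken from the fold change and its F statistic. Counts were simulated for 13485 genes, with changes put into 200 of the genes whose mean was at least 50 counts. By adjusted p alone, without the fold change, 69.7% of genes with a log2 change of 1 and 97.0% of those with 2 were found. Of the unchanged genes, 12 passed falsely. Recovery of genes at lower counts was not measured. Pairs of libraries of a genotype differed beyond sampling noise (chi-square per degree of freedom from 53.9 to 90.0), and no library was a copy. p-values measure the spread between mice, which had 1 library each, and intervals cover counting error only.

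Genes named were those marked as core in the lists, the 4 largest called changes per list and the 15 largest per direction over all genes, among genes whose mean reached 50 normalized counts and whose genotypes did not overlap, and some of these genes are not reported here. The comparison, lists and core genes were chosen with earlier results of these data known, and list counts are descriptions. Alternatives were DESeq2 1.42.0, other scalings and filters, the 2 genotypes alone, a replicate block and leaving out each library. Promoter windows came from RefSeq (GRCm38.p6), and no coordinate was moved between builds.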

Additional observations from a re-analysis of the deposited data

Results flagged for a closer look

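For 12 named genes the difference of the differences was called in the model of all genotypes (edgeR's quasi-likelihood test, Benjamini-Hochberg adjusted). Whether each of these genes kept that call under the alternatives was not examined. Each value is the log2 fold change of DKO against Nrf2 KO minus that of p65 KO against control. It was negative for Corin (-9.97), Gm4841 (-7.58), Gbp2 (-2.56), Serpina3m (-1.92), Glul (-1.54) and the transcription factor gene Foxa3 (-1.25). These genes were called higher in p65 KO, and some of them were lower in DKO than in Nrf2 KO. The value was also negative for Ifit3 (-1.77), which was called lower in DKO only. It was positive for Dhrs9 (4.24), Cyp4a31 (3.94), Plekhb2 (3.30), Mup20 (2.55) and Retsat (1.77), which were called lower in p65 KO. Cyp4a31 and Mup20 have close copies with which reads may be shared. In Cyp4a31 the Nrf2 KO libraries, at 191 and 253 normalized counts, were already below the controls, at 1044, 779 and 1322, before p65 loss was added. Mup20 had 113227 and 159764 in Nrf2 KO and 268650.0, 315335 and 155592 in DKO. Serpina3m had 6029, 5929 and 7751 in control, 17376 and 19736 in p65 KO and 5614, 9234 and 10182 in DKO.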

How the results depend on the processing

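Of 18 alternatives, the number of genes higher in p65 KO stayed within 1.5 times of 689 except with the replicate number as a block (458) and when some single libraries were left out, with a range from 191 to 738. The number lower ranged from 139 to 232 when libraries were left out, and from 140 to 241 otherwise. Of the 689 genes, 678 were shared with the calls of DESeq2, 415 with those of the block and 176 with those without p65 KO replicate 1. For DKO against Nrf2 KO the count of 59 was 296 with DESeq2, 112 without a filter on low counts, 32 with only the genotypes compared in the fit and 37 with the block, and 19 to 81 when libraries were left out. The difference of the differences was called for 118 genes with scaling to total counts, 249 with DESeq2, 137 without a filter and from 8 to 119 when libraries were left out. The replicate numbers are only numbers in the labels. Deviations from the genotype means correlated at -0.188 and -0.216 for control and p65 KO libraries with the same number. For control 1 with p65 KO 2 and control 2 with p65 KO 1 the correlations were 0.188 and 0.216. The deviations of the 2 p65 KO libraries are mirror images, so these values cannot show whether the numbers pair mice. The block is given as a setting and not as a pairing. Scaling to total counts shifted the middle of all genes whose mean reached 50 counts by 0.17 on the log2 scale. Of 140 genes with values in the text 97 were called, and 50 of these were called under every alternative. No called gene changed sign, which is likely in advance for genes whose libraries did not overlap. Of the 43 genes that were not called, 13 changed sign and 5 were called under an alternative. The log2 fold changes that changed sign were 0.00 for Sod2 with size factors of DESeq2, 0.17 for Sod2, 0.11 for Nfe2l2, 0.11 for Rela, 0.02 for Hp, 0.07 for Orm1 and 0.12 for Ghr with scaling to total counts and 0.01 for Sod2 with upper quartile scaling. They were 0.00 for Sod2 with the DESeq2 test, 0.01 for Sod2 with a mean of at least 10 counts and 0.00 for Sod2 with the compared genotypes alone. They were 0.01 for Sod2 and 1.14 for Cyp2b9 with the replicate block. With single libraries left out they ranged from -0.17 to 0.53 for Alas1, from -4.88 to 0.88 for Cyp2b9, from -0.17 to 0.04 for Ghr, from -0.34 to 0.20 for Hp, from -0.15 to 0.20 for Igf1 and from -0.18 to 0.32 for Isg15. The ranges were from -0.13 to 0.33 for Lgr5, from -0.12 to 0.00 for Nfe2l2, from -0.40 to 0.95 for Nr1d1, from -0.26 to 0.05 for Orm1, from -0.09 to 0.06 for Sod2 and from -0.03 to 0.23 for Tjp1. What moved these values was not tested. Depth limited the genes at 0 in control, for which only bounds against 3 counts were given.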

Other observations

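Serpins of the Serpina3 cluster, protease inhibitors that are close copies of each other, rose in part. Of 12 serpin genes 4 rose and 0 fell (1 was called lower without control replicate 3), with a median log2 fold change of 0.08. The shares over all genes tested were 5.05% and 1.54%. Serpina3g had 12.1, 26.6 and 52.3 normalized counts in control and 435 and 315 in p65 KO (log2 fold change 3.60, adjusted p = 0.00311), and Serpina3f had 9.94, 19.7 and 14.0 and 149 and 119. The abundant Serpina3k, with 591683, 432628 and 399435 against 276031 and 336501, was not called.

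Of 12 hepatocyte transcription factor genes Foxa3 was the one called, with 2236, 2153 and 2218 normalized counts in control and 4136 and 4736 in p65 KO (log2 fold change 1.01, adjusted p = 0.00221). Hnf4a, which maintains hepatocyte identity, had 20459, 19599 and 22455 and 28132 and 29252. Of 25 genes of heme and iron metabolism 1 rose (2 with DESeq2 or the replicate number as a block) and 1 fell. Alas1, the first enzyme of heme synthesis, had 14138, 10406 and 4732 normalized counts against 10105 and 11775 and was not called (adjusted p = 0.823). In retinoid metabolism 2 of 13 genes rose and 1 fell. Over all genes tested 5.05% rose and 1.54% fell, the shares to set beside the counts of these lists. Foxa3 was not called without control replicate 2 or p65 KO replicate 2 (log2 fold change 0.91).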
